A study of Mus musculus with 6 samples.

Results

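The Oas family was followed across 6 RNA-seq libraries of mouse endothelial cells. The family is given here by 8 genes, Oas1a, Oas1b, Oas1c, Oas1g, Oas2, Oas3, Oasl1 and Oasl2, out of 24421 genes in the deposited count table, which holds 12 genes with an Oas or Oasl symbol. The members were picked by name, but they were also selected on their measured values, that is, their levels in these 6 libraries and the ratio of each changed library to its control. All levels and ratios of the members below are therefore descriptions, and none is a test.

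The study asked how Dot1l, the methyltransferase of lysine 79 of histone H3, acts on the transcriptome of blood endothelial cells (BECs) and lymphatic endothelial cells (LECs). Cont BECs were sorted from the skin of Tie2-Cre(-); Dot1l2f/2f embryos at E15.5, and cKO BECs from Tie2-Cre(+); Dot1l2f/2f embryos of the same stage, so both carry the floxed allele. The sort kept cells without F4/80, CD45 and Lyve1 on the surface, and a figure legend of the study also gives CD31 as a positive marker. Tie2-Cre is active in endothelium and also in blood cell lineages. The cultured groups were Cont BECs and OE-BECs of the yolk sac line CRL-2581, and Cont LECs and OE-LECs of the dermal line C57-6064L. OE cells received a lentivirus that brings dCas9 fused to VP64 to the Dot1l promoter, control cells received empty lentivirus, and GFP-positive cells were sorted. Each condition is 1 library from pooled embryos or flasks, so every difference below is a difference between 2 libraries, with an interval that covers counting error only.

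Oas proteins are sensors of double-stranded RNA. On binding it, the active members join ATP into short chains of adenylate with 2′-5′ links (2-5A), which act as a second messenger of the antiviral response. Transcription of the family is a standard readout of type I interferon, whose receptor activates the ISGF3 complex on interferon-stimulated response elements. Endothelial cells are known to respond to interferon in this way.

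The libraries held 8863349 to 31032461 reads. Dot1l itself had 86.0 counts per 1000000 reads (CPM) in the control of the skin pair and 85.2 in the library labelled cKO. Its log2 ratio was -0.07 (interval -0.21 to 0.07), so the count over the whole gene did not separate these libraries. Such a count does not show which exons the reads come from. The study itself checked the loss of Dot1l in cKO BECs by RT-qPCR. Dot1l was 2.78-fold higher in OE-BECs and 2.30-fold higher in OE-LECs than in their controls. The endothelial genes Pecam1 and Cdh5 were present in all 6 libraries. Prox1, the factor that defines lymphatic identity, was at 0 reads in the LEC pair, where 3 reads would be 0.115 and 0.0967 CPM. Pdpn had 0 reads there as well, and Ccl21a had 0 reads in all 6 libraries. The other lymphatic markers of the list were present in the LEC pair, Lyve1 at 1998.1 and 1962.4 CPM and Flt4 at 106.6 and 130.1 CPM. They were present in the cultured BEC pair too, Lyve1 at 603.9 and 1061.2 CPM and Flt4 at 144.3 and 98.3 CPM. The skin pair, labelled as BECs, held Prox1 at 147.1 and 79.7 CPM and Lyve1, against which it was sorted, at 1027.3 and 1800.6 CPM. Macrophage and leukocyte genes, which the sort was meant to remove, summed to 4066.3 CPM in the control and 6396.9 CPM in the library labelled cKO, where 11 of 12 were higher. In the cultured libraries the same 12 genes summed to 34.4 to 94.7 CPM, and Adgre1, C1qa, C1qb and C1qc had 0 reads there.

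All 8 genes lie on chromosome 5 of mm10 (GENCODE M21) in a pair of clusters. Oasl2 (chr5:114896936-114912234) and Oasl1 (chr5:114923240-114937915) are neighbours on the plus strand. Further along the chromosome follow Oas2 (chr5:120730333-120749853), Oas3 (chr5:120753098-120777661), Oas1c (chr5:120800194-120812514), Oas1b (chr5:120812635-120824163), Oas1g (chr5:120876142-120887613) and Oas1a (chr5:120896256-120907521), with Oas1b on the plus strand and the others on the minus strand. GENCODE lists Oas1b as a polymorphic pseudogene and the other members as protein-coding. Exons of Oas1c and Oasl1 overlap those of antisense genes (Gm43069 over 227 bases and Gm13822 over 38), whose reads may be among theirs.

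Promoter sequences (RefSeq, GRCm38.p6, 250 bases before to 50 after a gene's start) were found for 6 members, and not for Oas1b and Oas2. They were searched on both strands for GAAANNGAAA, the core of an interferon-stimulated response element, and for its shorter part AANNGAAA, which every longer match also holds. The longer motif was present in 4 of the 6 (Oas1a, Oas1c, Oas1g and Oas3), against 3.99% of the 27025 genes with a promoter. The shorter one was present in 5 of the 6, Oasl1 being the addition, against 26.7% of genes. Neither was found in the Oasl2 window. The stretches around the longer motif are shown because this motif is what the 4 promoters share. Over the whole window, the pairs among them other than Oas1a and Oas1g were 46.6% to 51.6% identical. Each is written 5′ to 3′ on the gene's own strand, with matches to GAAANNGAAA on either strand in capitals:

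Oas1a (chr5:120907526-120907589, minus strand): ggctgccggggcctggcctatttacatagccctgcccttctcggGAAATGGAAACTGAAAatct

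Oas1g (chr5:120887614-120887675, minus strand): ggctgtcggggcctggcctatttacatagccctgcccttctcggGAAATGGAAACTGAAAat

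Oas1c (chr5:120812563-120812634, minus strand): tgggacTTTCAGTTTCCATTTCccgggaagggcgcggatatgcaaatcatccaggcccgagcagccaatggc

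Oas3 (chr5:120777675-120777784, minus strand): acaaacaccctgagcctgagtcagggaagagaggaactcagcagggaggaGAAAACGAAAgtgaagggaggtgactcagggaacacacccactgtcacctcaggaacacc

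Oas1a and Oas1g carry an identical run of 16 bases, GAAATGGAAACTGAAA, made of overlapping matches, and over all aligned columns the pair of 300-base promoters was 85.3% identical. Oas1c holds the same 16 bases on the other strand, as TTTCAGTTTCCATTTC at chr5:120812613-120812628. That copy lies between the starts of Oas1c and Oas1b, which are transcribed away from each other, and 6 bases before the start of Oas1b in GENCODE. This run was noticed after the promoters were read. It occurred in the promoters of 5 genes of 27025, the other pair being Apol9a and Apol9b. These were 3.55-fold and 4.48-fold higher in OE-LECs than in Cont LECs, and 1.20-fold and 1.41-fold higher in OE-BECs than in cultured Cont BECs. In either skin library they had at most 2 reads. Oas1c, which holds the run too, was 1.77-fold higher in OE-LECs.

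In the controls, the summed level of the 8 genes was 24.9 CPM (95% interval 21.8 to 28.4) in skin BECs, 131.6 (127.2 to 136.1) in LECs and 307.3 (299.2 to 315.6) in cultured BECs. The sums of the changed libraries were 26.9 CPM (labelled cKO), 399.3 (OE-BECs) and 652.1 (OE-LECs). Skin and cultured libraries differ in tissue, culture and viral transduction at once, and the part of each cannot be told apart. In such bulk libraries, fewer cells with a transcript and less transcript per cell cannot be told apart either. The plot of CPM by library shows the members one by one. Below, 6 values in a row follow the order skin Cont BECs, cKO BECs, cultured Cont BECs, OE-BECs, Cont LECs, OE-LECs.

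**Figure D1:**
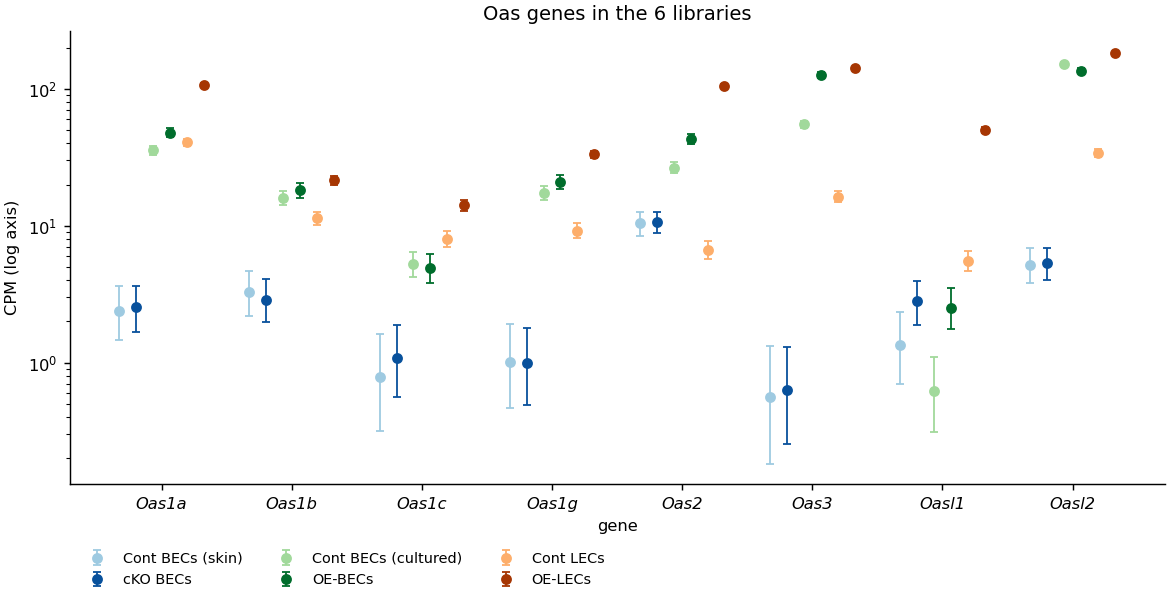
Level of each Oas gene (CPM, log axis) in the 6 libraries, with exact 95% binomial intervals that cover counting error, 1 library per condition. The OE-LEC library is the highest for each of the 8 genes, and the skin libraries are the lowest except for Oas2, which is lowest in Cont LECs, and Oasl1, which is lowest in cultured Cont BECs.

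Oas1a and Oas1g, active synthetases of a single unit, were lower in skin than in culture. Oas1a had 2.37, 2.53, 35.5, 47.7, 40.6 and 106.2 CPM. The intervals of Cont LECs and cultured Cont BECs overlapped, as did those of the skin pair, and the other neighbours in the order did not. Oas1g had 1.02, 0.992, 17.3, 21.0, 9.23 and 33.4 CPM, with overlapping intervals in the skin pair and in the cultured BEC pair. It was the lower of the pair in each library, also per length, at 0.424 to 14.3 reads per 1000 bases per 1000000 reads (RPKM) against 1.26 to 56.4 for Oas1a. The mature transcripts of these genes share 862 of the 75-base windows in GENCODE, which is 47.6% of those of Oas1a and 36.9% of those of Oas1g, so the split of reads between them is uncertain.

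Oas1b, the gene of the mouse flavivirus resistance locus, which is truncated in many laboratory strains, varied least between the cultured libraries. It had 3.27, 2.89, 15.9, 18.2, 11.4 and 21.5 CPM. The intervals of OE-LECs and OE-BECs overlapped, as did those of OE-BECs and cultured Cont BECs. Oas1c, a relative of the same cluster, had 0.790, 1.08, 5.26, 4.95, 8.04 and 14.1 CPM. For Oas1c both LEC libraries were above both cultured BEC libraries, which overlapped each other. Oas1b shared none of its 75-base windows with another Oas gene and Oas1c shared 1.50%.

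Oas2 and Oas3 carry tandem copies of the synthetase unit. Oas2 had 10.4, 10.6, 26.5, 42.8, 6.62 and 105.1 CPM. Cont LECs were thus the lowest of the 6 libraries and OE-LECs the highest. Oas3 had 0.564, 0.632, 55.1, 126.6, 16.3 and 140.9 CPM, the first pair from 5 and 7 reads. All neighbours in the order of Oas3 were apart except the skin pair. Oas2 and Oas3 shared no 75-base window with another Oas gene.

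The Oas-like genes end in ubiquitin-like domains. Oasl1 lacks synthetase activity and is known to hold back translation of Irf7, while Oasl2 has kept the activity. Oasl1 had 1.35, 2.80, 0.622, 2.51, 5.51 and 49.7 CPM. Only the LEC libraries stood apart from the others, whose neighbouring intervals overlapped. Oasl2 had 5.19, 5.32, 151.1, 135.6, 33.9 and 181.2 CPM, and only the skin pair overlapped. Although the genes are adjacent, cultured Cont BECs held the lowest level of Oasl1 and the second highest of Oasl2.

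Per length, the leading member changed with the library. Of the summed reads per 1000 bases of exon, Oas2 made up 31.5% and 29.7% in the skin pair, ahead of Oas1b at 22.2% and 18.0%. In cultured Cont BECs, Oasl2 made up 32.0% and Oas1a 25.4%. In OE-BECs, Oas1a was ahead with 26.6%, followed by Oasl2 with 22.3%, and Oas3 had 18.8% against 10.5% in its control. In Cont LECs, Oas1a alone made up 47.1% and Oas2 was the last of the 8 with 3.25%. In OE-LECs, Oas1a had 31.6%, Oas2 had 13.2% and Oasl1 had 10.7% against 4.62% in the control. Exon length counts every annotated exon of a gene, so a gene with unused exons is placed too low. The leader also depends on the measure. By reads not divided by length, Oasl2 led in OE-BECs, with 34.0%, and in OE-LECs, with 27.8% against 16.3% for Oas1a, and the leaders of the other 4 libraries were those named above.

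**Figure D2:**
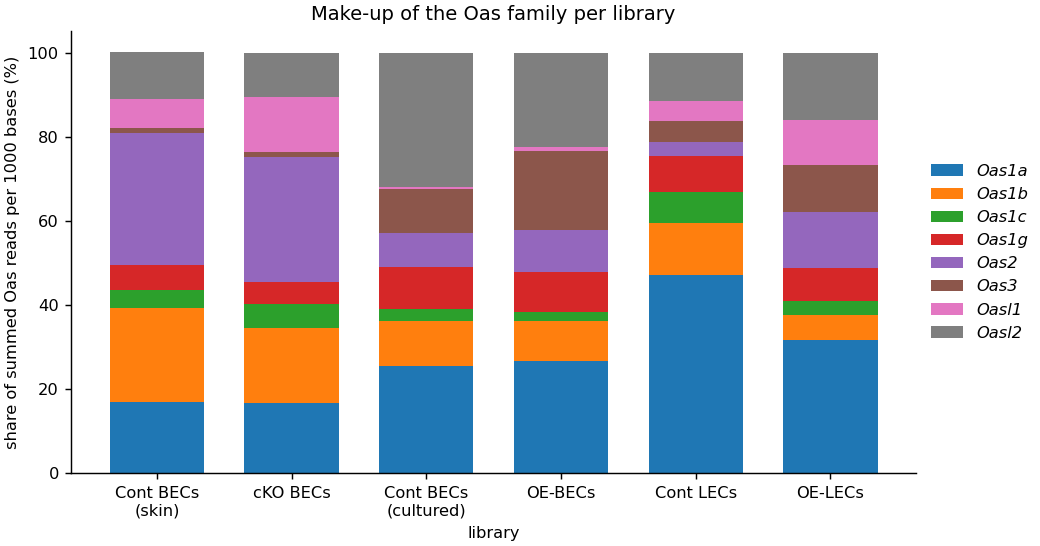
Share of each Oas gene in the summed Oas reads per 1000 bases of annotated exon (percent), for each of the 6 libraries. Oas2 leads in both skin libraries, Oasl2 in cultured Cont BECs, and Oas1a in OE-BECs, Cont LECs and OE-LECs.

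In OE-LECs, the 8 genes were higher than in Cont LECs, and the summed count was 5.02-fold higher after normalization (log2 ratio 2.33, interval 2.27 to 2.38). The study's rule calls a gene if the larger of its 2 normalized counts reaches 3 (5 in the skin pair) and exceeds the smaller more than 3 times. By this rule 5 of the 8 were called up, against 2.77% of all 13883 genes past the minimum, and 0 were called down, against 2.09%. The interval lay above 0 for 8 of 8 members, against 24.2% of genes with at least 10 reads, and below 0 for 0, against 21.4%. The median log2 ratio was 2.15, beside 0.00 over all such genes. Pan-endothelial markers were lower in 6 of 7 in OE-LECs (median -0.27) and blood endothelial markers in 4 of 5 (median -0.14, Flt1 -1.12). The 3 fibroblast and pericyte markers with at least 10 reads had a median of 0.09, with Pdgfra at 1.48 (interval 1.24 to 1.72). The intervals of Col1a1 (-0.77 to 0.81) and Pdgfrb (-0.33 to 0.51) included 0. None of these markers was called, and how much they bear on the Oas ratios was not tested.

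The members differed widely in size of this difference. Oas2 went from 173 to 3261 reads, 16.1-fold (log2 ratio 4.01, interval 3.78 to 4.23). Oasl1, from 144 to 1543 reads, was 9.13-fold higher, and Oas3, from 425 to 4373 reads, 8.77-fold higher, and their intervals (2.94 to 3.45 and 2.99 to 3.28) overlapped. Oasl2 was 5.41-fold higher, with 886 and 5623 reads. Among the 10503 genes with reads in both LEC libraries and a normalized count of 100 or more in one, these 4 were 1st, 3rd, 6th and 19th by log2 ratio.

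The members of the Oas1 cluster had smaller ratios. Oas1g, the member just inside the 3-fold limit, was 3.66-fold higher (241 and 1035 reads), and Oas1a, just outside it, 2.65-fold higher (1061 and 3297 reads). Taken as a sum, because their reads cannot be split with certainty, Oas1a and Oas1g went from 1302 to 4332 reads, a 2.84-fold difference. Oas1b was 1.91-fold higher (297 and 666 reads) and Oas1c 1.77-fold higher (210 and 437 reads), with overlapping intervals.

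**Figure D3:**
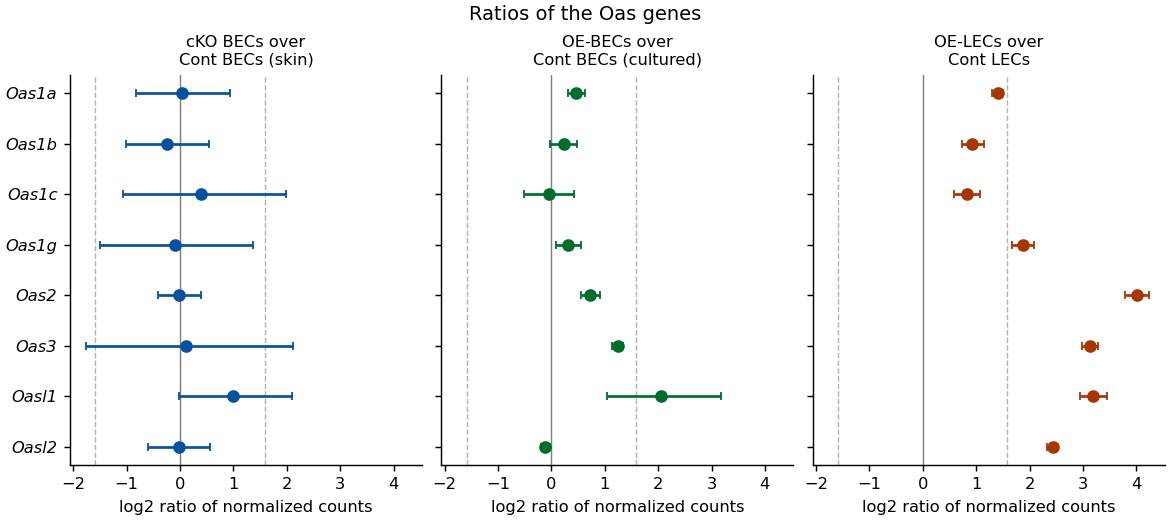
Log2 ratio of normalized counts of each Oas gene in the changed library over its control, with exact 95% intervals for counting error, for the 3 pairs of libraries. The dashed lines mark a 3-fold difference. The 8 OE-LEC ratios lie between 0.83 and 4.01, those of OE-BECs between -0.12 and 2.05, and every interval of the skin pair includes 0.

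In OE-BECs the family split. The summed count was 1.33-fold higher than in cultured Cont BECs (log2 ratio 0.42, interval 0.36 to 0.47). Oasl1 was called up, 4.15-fold, on only 11 and 35 reads (log2 ratio 2.05, interval 1.04 to 3.18). The rule thus called 1 of 8 members up, against 8.02% of 14792 genes, and 0 down, against 5.27%. Oas3 was 2.36-fold higher (974 and 1764 reads, log2 ratio 1.24, interval 1.13 to 1.35) and Oas2 1.66-fold higher (469 and 596 reads). Oas1a and Oas1g were 1.38-fold and 1.25-fold higher, and their sum 1.34-fold.

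The other 3 members had ratios near 0 in this pair. The interval of Oas1b (-0.02 to 0.48) and that of Oas1c (-0.52 to 0.42) included 0. Oasl2 had 2672 and 1889 reads, a log2 ratio of -0.12 (interval -0.20 to -0.03). Intervals lay above 0 for 5 members, against 27.4% of genes with at least 10 reads, and below 0 for 1, against 30%. The median log2 ratio was 0.39, beside -0.01 over all such genes. Rn45s, a ribosomal RNA precursor, held 5.91% of all reads in cultured Cont BECs and 10.9% in OE-BECs. Scaled by total counts without Rn45s, the interval of Oasl2 was -0.16 to 0.01 and included 0. Pan-endothelial markers were lower in 7 of 7 in OE-BECs (median log2 ratio -0.30) and blood endothelial markers in 4 of 5 (median -0.46). Of the blood endothelial markers, Flt1 was called down (5099 and 888 reads), 1 of 5 genes against 5.27% of all genes. The part of these marker shifts in the Oas ratios was not tested.

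Each of the 8 ratios was larger in the LEC pair than in the BEC pair. The OE-LEC interval lay wholly above the OE-BEC interval for 7 of 8 members, against 21.0% of the 12570 genes with at least 10 reads in both pairs, Oasl1 being the exception. The log2 ratios differed by 3.28 for Oas2, 2.55 for Oasl2 and 1.89 for Oas3, and by 0.71 to 1.55 for the other 5. The controls differed in level as well. Oas2, Oas3 and Oasl2 had 6.62, 16.3 and 33.9 CPM in Cont LECs, against 26.5, 55.1 and 151.1 CPM in cultured Cont BECs. Oas1b and Oas1g were lower in Cont LECs too, at 11.4 and 9.23 CPM against 15.9 and 17.3 CPM. Oas1a, Oas1c and Oasl1 were instead higher in Cont LECs, at 40.6, 8.04 and 5.51 CPM against 35.5, 5.26 and 0.622 CPM, with overlapping intervals for Oas1a. For Oas3, Oasl2 and Oas1b the OE libraries were closer to each other, at 140.9, 181.2 and 21.5 CPM in LECs and 126.6, 135.6 and 18.2 CPM in BECs. Oas2 and Oas1g had 105.1 and 33.4 CPM in OE-LECs, against 42.8 and 21.0 CPM in OE-BECs. With 1 library per condition, the difference between the lines was not tested against replicates.

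In the skin pair no member was called in either direction, against 5.17% of 15993 genes up and 2.41% down. All 8 intervals included 0, against 23.1% of genes with an interval above 0 and 25.4% with one below. Oas2, the member with the most reads here, had 92 reads in the control and 118 in the changed library, and its log2 ratio was -0.02 (interval -0.42 to 0.39). Oasl2 had 46 and 59 reads and the same log2 ratio, with an interval of -0.60 to 0.57. The largest difference was that of Oasl1, with 12 and 31 reads (log2 ratio 0.99, interval -0.01 to 2.09). The others had 5 to 32 reads per library, which limits what could be detected. The interval ran from -1.01 to 0.54 for Oas1b and from -1.76 to 2.11 for Oas3. Macrophage and leukocyte genes had a median log2 ratio of 0.74 in this pair, and the Oas genes one of 0.01. Pan-endothelial markers were lower in 7 of 7 (median -0.71), blood endothelial markers lower in 5 of 5 (median -0.62), and 4 of 6 keratinocyte markers were higher (median 0.83). The part of these shifts in the Oas ratios was not tested.

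Other genes tied to the family by function or descent had small ratios in OE-LECs. Pde12, which degrades 2-5A, had 710 and 949 reads (log2 ratio 0.19, interval 0.05 to 0.33). Mb21d1, the structurally related DNA sensor cGAS, had 438 and 628 reads (log2 ratio 0.29, interval 0.11 to 0.47), and neither was called. Of the other Oas1 genes in the table, Oas1h had 26 to 34 reads in each cultured library and at most 1 in skin, and Oas1d, Oas1e and Oas1f had at most 3 reads in any library.

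Genes that sense double-stranded RNA or carry the interferon signal had lower median ratios in OE-LECs than the Oas genes. Of 9 sensors and adaptors, 9 were higher and 0 were called up, against the 2.77% of all genes, with a median log2 ratio of 0.63. Their interval lay above 0 for 8, against 24.2%. Ifih1 (MDA5, a sensor of long double-stranded RNA) had the largest, 1.57, and Ddx58 (RIG-I) had 0.64. Of 11 genes of the interferon receptor, ISGF3 and their regulators, 8 were higher, 3 were lower and 2 were called up, against 2.77%, with a median of 0.27. Those called were Irf7, the transcription factor that amplifies interferon genes, with 766 and 5679 reads (6.32-fold), and Usp18, which damps the receptor, with 596 and 2841 reads (4.06-fold). The ratio of Irf7 was above those of 5 Oas genes and that of Usp18 above those of 4. Stat2 and Irf9, subunits of ISGF3, had log2 ratios of 0.75 and 0.73, while the receptor genes Ifnar1 and Ifnar2 had -0.10 and -0.03.

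Of 20 other antiviral interferon-stimulated genes, 18 of the 19 with at least 10 reads had a ratio above 0 in the LEC pair and 7 were called up, against 2.77% of all genes, with a median log2 ratio of 1.35. The interval lay above 0 for 18, against 24.2%. Ifi44, Ifit3, Ifit1 and Ifit3b had ratios of 2.65, 2.64, 2.63 and 2.61, which is below Oas2, Oas3 and Oasl1 and above Oasl2. In OE-BECs the same list had a median of -0.10, with 8 genes higher and 12 lower. Mx1 was called down there (16 and 0 reads), 1 of 20 genes against 5.27% of all genes. It was not called with a minimum of 20 normalized counts. In the skin pair it had a median of -0.04, with 10 genes higher and 10 lower. Ifi44 was called down in the library labelled cKO (100 and 20 reads), 1 of 20 genes against 2.41% of all genes. The sensors had medians of -0.17 in OE-BECs, where 8 of 9 were lower, and -0.14 in the skin pair. Zbp1 was called down in OE-BECs (23 and 4 reads), 1 of 9 genes against 5.27% of all genes. Irf7 had log2 ratios of 0.24 in OE-BECs and -0.28 in the skin pair. Cmpk2, of the antiviral list, had 0.81 in OE-BECs (interval 0.58 to 1.04), beside 0.73 for Oas2 and 1.24 for Oas3. The lists were written with earlier results of these data known.

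**Figure D4:**
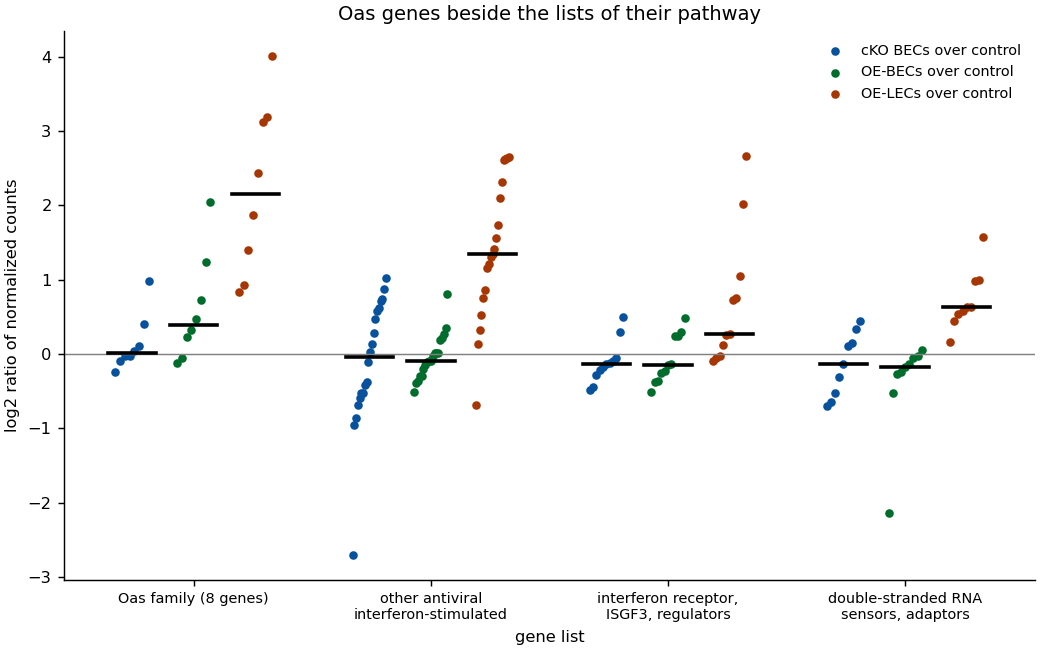
Log2 ratios of normalized counts for the Oas genes and 3 lists of their pathway, in the 3 pairs of libraries, where both libraries together held at least 10 reads. Each point is a gene and each black line the median, and Mx1, with 16 and 0 reads in cultured BECs, enters the median but has no point. The Oas median in OE-LECs, 2.15, is above those of the other lists (1.35, 0.27 and 0.63).

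The neighbours of the Oas clusters did not share these ratios in OE-LECs. Next to Oasl1 and Oasl2, the log2 ratios of Ankrd13a, 2610524H06Rik, 2210016L21Rik and Sppl3 were -0.22, -0.03, -0.05 and -0.13. Of the neighbours of the larger cluster, Ddx54 had 0.03, Ptpn11 0.15 and Rpl6 -0.11. Rasal1, Dtx1, Rph3a and 4930519G04Rik had at most 1 read in either LEC library. Within the larger cluster, Oas1h, between Oas1b and Oas1g, had 30 and 34 reads (log2 ratio -0.05). In the skin pair, Dtx1, 18.5 kb from the cluster, was called down (131 and 35 reads, log2 ratio -2.28), as were 2.41% of all genes. The nearest members, Oas2 and Oas3, had -0.02 and 0.11 in this pair.

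**Figure D5:**
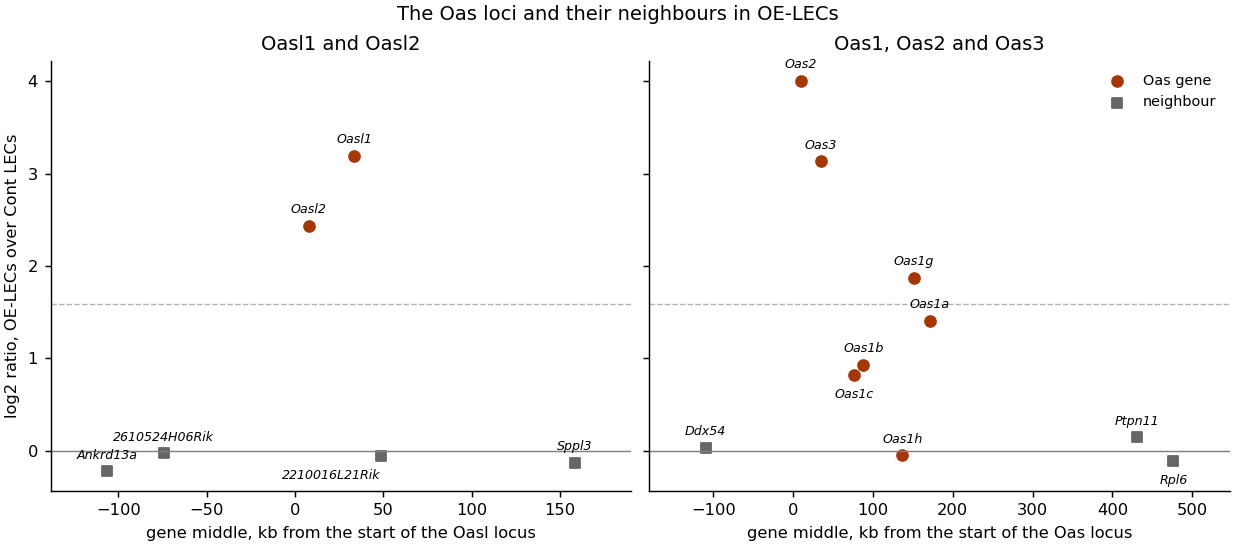
Log2 ratio of OE-LECs over Cont LECs for the Oas genes (circles) and their protein-coding neighbours named in the text (squares), against the distance of the gene's middle from the start of its cluster in kb, for genes with at least 10 reads. The dashed line marks a 3-fold difference. The neighbours shown lie between -0.22 and 0.15, the 8 members between 0.83 and 4.01, and Oas1h, which is not among the 8, at -0.05.

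Outside the family, the profile nearest to the mean of the 8 members was that of Ube2l6, the enzyme that conjugates Isg15. Its root mean square difference over the 6 libraries, on centred log2(CPM + 1), was 0.232, and Irf7 followed at 0.274, against a median of 1.62 over 13257 genes. Ube2l6 had 5.75, 7.49, 41.9, 46.4, 38.0 and 109.5 CPM in the 6 libraries. Next came Defb1 (0.410), Ces2g (0.442), Pla2g5 (0.459), Pcdh7 (0.460), Irgm1 (0.461), Rtp4 (0.463), Isg15 (0.485) and Btc (0.502). The members themselves lay 0.261 (Oas1g) to 1.41 (Oasl1) from their own mean, and Ube2l6 was nearer to it than any of them. Ube2l6 was, however, picked as the nearest of the 13257 genes, while the members were not picked for nearness.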

How the data were processed

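The authors made ScriptSeq v2 libraries, trimmed reads with skewer, aligned them to mm10 with STAR, counted them per gene with VERSE (option -S) and deposited the raw counts, which are used here. What that option means for strand is not given in the sources used here. CPM is reads per 1000000 counted reads. Normalized counts come from the median of ratios on the 2 libraries of a pair. Intervals are exact (Clopper-Pearson, 95%), and those of ratios are conditional on the reads of both libraries. They and the floor of 3 reads cover counting error only, since PCR reads are not independent molecules. The call rule is that of the study's methods. No p-value was computed, because each condition has 1 library. Python 3.11.15, numpy 2.4.6, scipy 1.17.1, pandas 2.3.3 and edgeR 4.0.16 in R 4.3.3 (TMM alternative) were used, and the steps were tested on simulated data. Lengths and positions are from GENCODE M21. Named genes are the members, list members that were called or have a described role, the 3 nearest protein-coding neighbours on each side, and the 10 genes nearest in profile. A few genes that this rule names are not reported here. Members and lists were chosen with earlier results of these data known. Alternatives were other scalings, minimums, a fold of 2 and a pseudocount of 1.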

Additional observations from a re-analysis of the deposited data

Results flagged for a closer look

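The log2 ratios of Oasl2 had opposite signs in the overexpressing lines. Its log2 ratio of OE over Cont was -0.12 (interval -0.20 to -0.03) in cultured BECs and 2.44 (interval 2.33 to 2.54) in LECs. Scaled by total counts without Rn45s, the BEC interval was -0.16 to 0.01 and included 0. This difference was not tested, since each condition has 1 library.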

How the results depend on the processing

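No paired analysis was possible because each condition has 1 library, and no library could be left out of a pair. With a fold of 2 in place of 3, 2 Oas genes were called up in OE-BECs, Oas3 joining Oasl1, and Oas1a was called in OE-LECs. At that fold, 13 of the 20 other antiviral genes were called up in OE-LECs, against 7 at a fold of 3. The share of all genes called at a fold of 2 is not given here. Under size factors from all 6 libraries, TMM factors and total counts with or without Rn45s, no member changed its call, and all genes of a pair shifted by -0.04 to 0.06 on the log2 scale. A minimum of 20 normalized counts, no minimum and a pseudocount of 1 changed no member's call either. For Oasl2 in OE-BECs, the log2 ratio was -0.16 by total counts and -0.08 without Rn45s. Of the 10 genes nearest in profile, 5 remained with a pseudocount of 0.1 and 10 with a minimum of 500 reads over the 6 libraries. The skin pair had 5 to 118 reads per member, which limits what its intervals can show.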

Other observations

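The interferon genes themselves were almost without reads. In each of the 6 libraries, 19 of 21 interferon ligand genes had 0 reads. Ifnb1 had 1 and 5 reads in the LEC pair and 0 in the other 4 libraries. The study's rule calls it up in OE-LECs, 1 of 21 genes against 2.77% of all genes. The interval of its log2 ratio (2.09) ran from -1.07 to 7.65, however, and included 0. Ifnb1 was not called with a pseudocount of 1, with size factors from all 6 libraries or with a minimum of 20 normalized counts. Ifne, an epithelial type I interferon gene, was the ligand gene with the most reads, 954 and 558 in the LEC pair. It had 317 and 67 reads in the cultured BEC pair, where it was called down, 1 of 21 genes against 5.27% of all genes.

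Genes that lean towards interferon-gamma had a median log2 ratio of 1.34 in OE-LECs, -0.28 in OE-BECs and -0.42 in the skin pair. Cxcl10 (27 and 221 reads) and Iigp1 (73 and 354 reads) were called up, 2 of 10 genes against 2.77% of all genes. Cxcl10 was also called up in OE-BECs (8 and 27 reads), 1 of 10 genes against 8.02% of all genes. In the library labelled cKO, Irf1 (1116 and 429 reads) and Gbp2b (14 and 0 reads) were called down and Cxcl9 (2 and 15 reads) up, against 2.41% of all genes called down and 5.17% called up. With a minimum of 20 normalized counts, Cxcl9 and Gbp2b were not called. With a fold of 2, 6 genes of this list were called up in OE-LECs. In the library labelled cKO, 2 were then called up and 4 down.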
